A study of Mus musculus with 8 samples.

Results

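The genes described here are the expressed members of the mouse Zfp series, numbered genes for zinc finger proteins. They were taken by symbol (Zfp, a number and at most 1 letter) and by a mean level of at least 10 counts per 1000000 counts of the library (CPM) over all 8 libraries. Of 354 such symbols in tables of 24222 genes, 220 met the rule, 129 lay under the limit, and 5 (Zfp36, Zfp445, Zfp280b, Zfp280c and Zfp280d) were left out by name. The level chose the members, so their high expression is a description and not a result. The genotype contrast was not part of the rule, but 3 of the 5 genes left out by name passed the test of that contrast.

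The libraries came from haematopoietic stem cells sorted from bone marrow of C57BL6 mice. One group was 4 wild-type (WT) control mice. The other was 4 mice with a triple knockout of Kdm4a, Kdm4b and Kdm4c (KO). The time of sampling is given as 2 weeks after induction for both groups. Each mouse gave 1 library. The sources used here do not give the age of the mice, the sort markers, the agent that induced the knockout, whether controls received it, the deleted exons or the cells in which deletion took place.

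Most Zfp proteins carry arrays of C2H2 zinc fingers, each a short fold held by a zinc ion that can contact DNA. Many also carry a KRAB domain, which binds TRIM28 and through it SETDB1 and HP1 proteins, so that histone H3 lysine 9 (H3K9) is methylated and the bound DNA, often a retroelement, is silenced. The genes lie in chromosome clusters that grew by duplication, and the clusters themselves often carry H3K9 trimethylation. KDM4A, KDM4B and KDM4C remove methyl groups from H3K9 and from lysine 36 of the same histone. The comparison asks which Zfp RNAs differ when these 3 demethylases are lost.

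WT libraries held 3594315 to 6044289 counts and KO libraries 5541504 to 14872493. The RNA of Kdm4a, Kdm4b and Kdm4c was lower in every KO library than in any WT library, with log2 fold changes of -0.87, -1.40 and -1.71. The edgeR adjusted p was 0.132 for Kdm4a, 0.142 for Kdm4b and 2.06e-05 for Kdm4c. Kdm4b rested on 6 to 72 counts per library. Counts sum over whole genes, so exons that were not deleted are included. All 12 stem cell markers examined, among them Kit, Mecom, Hlf and Procr, were detected at a mean of at least 55.3 CPM. Their summed level was 5426 to 5664 CPM in WT and 4441 to 4960 CPM in KO. Of the 12, 11 had a fold below 1, and Ly6a lay higher in every KO mouse (75.4 to 89.2 CPM) than in any WT mouse (30.4 to 63.6 CPM). Markers of B cells reached at most 0.57 CPM in sum and those of T and NK cells at most 0.067 CPM, with Cd3g and Ncr1 at 0 counts throughout. Markers of macrophages and dendritic cells summed to 4.46 to 13.4 CPM in WT and 15.5 to 28.4 CPM in KO, with Siglech at 0. Those of megakaryocytes summed to 164 to 212 CPM in WT and 272 to 290 CPM in KO. The 5 megakaryocyte markers did not move together, with log2 fold changes from -0.43 to 1.18 and 1 of 5 below 0. By edgeR, 2 of the 5 were higher and 0 lower in KO at an adjusted p under 0.05. Of all genes tested, 0.252% were higher and 0.33% lower at that threshold. Of the 7 macrophage and dendritic markers listed, 1 had enough counts for the genotype test, with a log2 fold change of 1.57. That marker was also higher past the threshold by edgeR. The summed levels of neutrophil (12.9 to 35.8 CPM in WT, 18.96 to 59.2 CPM in KO), erythroid (15.1 to 38.6 CPM and 11.1 to 22.6 CPM) and mast cell and basophil markers (1.90 to 9.77 CPM and 2.20 to 7.91 CPM) overlapped between the groups. The part of these shifts in any value below was not tested. In sorted bulk cells, fewer cells of a type and less RNA per cell cannot be told apart.

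The 220 genes together took 13122 to 14402 CPM per library. Their median was 35.4 CPM, and the 10 highest held 31.3% of the sum. Zfp871 had the most reads, at a mean of 964 CPM, followed by Zfp106 at 786 CPM and Zfp207 at 594 CPM. Dividing by kilobases of annotated exon adjusts these levels for length alone. By this measure the order was Zfp207 at 89.2 CPM per kb, Zfp871 at 86.7, Zfp106 at 75.4, Zfp422 at 52.5 and Zfp869 at 50.4. The median over the members was 6.94 CPM per kb, with a range from 1.18 to 89.2. Zfp207 encodes BuGZ, which acts in spindle assembly, and Zfp106 an RNA-binding protein needed in motor neurons. Of the exon bases of Zfp106, 26.1% overlap an antisense gene.

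Of the 10 members with the most reads, 0 passed an adjusted p of 0.05 between the genotypes by edgeR, DESeq2 or limma voom. By edgeR, 1 of the 10 had an unadjusted p under 0.05. Over all genes tested at 10 CPM or more, 0.661% passed by edgeR and 11.5% had an unadjusted p under 0.05. Zfp871 was at 852, 901, 1035 and 834 CPM in the WT mice (1 to 4) and at 839, 1051, 1070 and 1129 CPM in KO mice 1 to 4. The groups overlapped through KO mouse 1, which lay among the WT mice. Zfp106 ran from 690 to 798 CPM in WT and from 714 to 860 CPM in KO. For Zfp207 the range was 560 to 635 CPM in WT and 547 to 615 CPM in KO, with a log2 fold change of -0.02 (SE 0.0997). The other 7 of the 10 highest, Zfp292, Zfp664, Zfp266, Zfp148, Zfp608, Zfp704 and Zfp644, had log2 fold changes between -0.29 and 0.03. The lowest of these was that of Zfp608, at 288 ± 20.4 (WT) and 236 ± 38.3 (KO) CPM, with an edgeR adjusted p of 0.384. Here and below ± gives the SD over n = 4 mice.

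**Figure D1:**
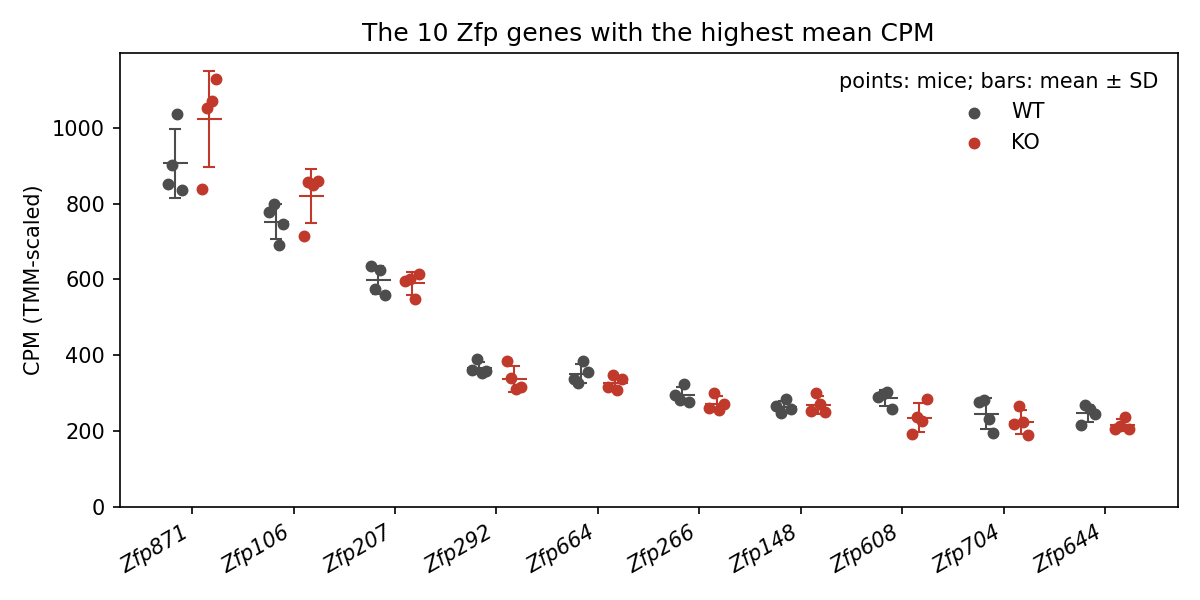
CPM in each of 4 WT and 4 KO mice (points) with mean and SD (bars) for the 10 Zfp genes with the most reads, on a linear axis. WT and KO points overlap for each of the 10 genes, and Zfp871, Zfp106 and Zfp207 lie above the rest.

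In KO, 1 of the 220 genes fell and 0 rose past an adjusted p of 0.05 in edgeR's quasi-likelihood test over all genes. This is 0.455% of the members, against 0.583% of the 11498 genes tested (0.33% lower, 0.252% higher) and 0.661% of those at 10 CPM or more (0.371% lower, 0.29% higher). The gene was Zfp518a (ENSMUSG00000049164.7, chromosome 19, 40894705 to 40917947, plus strand, mm10), a paralogue of Zfp518b. Zfp518a was at 221, 245, 172 and 206 CPM in the WT mice (1 to 4) and at 106, 93.9, 109 and 82.8 CPM in KO mice 1 to 4. The lowest WT mouse lay well above the highest KO mouse. The fall was 2.13-fold, from 211 ± 30.3 to 97.8 ± 11.9 CPM (SD, n = 4), a log2 fold change of -1.09 (SE 0.144, edgeR adjusted p = 8.03e-05). It rested on 447 to 1629 counts per library, and 0.274% of its sampled 50-base stretches occurred in another gene's transcripts. Zfp518b, at 55.7 ± 14.6 (WT) and 55.8 ± 15.6 (KO) CPM, had a log2 fold change of 0.05 (SE 0.219). The call of Zfp518a was kept in each of the 16 alternative fits, with adjusted p of at most 0.00108. With WT mouse 2 left out, or WT mouse 4, or KO mouse 2, the members called were 2, and with KO mouse 3 left out they were 3, all lower and Zfp518a among them. Put back, the 5 symbols left out by name brought the calls to 4 (1.78%), 3 lower (Zfp518a, Zfp445 and Zfp280d) and 1 higher (Zfp280c).

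The sequence upstream of Zfp518a is shown because this is the gene that passed. It is from RefSeq, build GRCm38.p6, chr19:40894455-40894702, plus strand, 5′ to 3′ in the direction of the gene, and stops before the first annotated exon. Capitals mark a match to the reverse complement of CCGGAAG, a core bound by ETS factors.
Zfp518a: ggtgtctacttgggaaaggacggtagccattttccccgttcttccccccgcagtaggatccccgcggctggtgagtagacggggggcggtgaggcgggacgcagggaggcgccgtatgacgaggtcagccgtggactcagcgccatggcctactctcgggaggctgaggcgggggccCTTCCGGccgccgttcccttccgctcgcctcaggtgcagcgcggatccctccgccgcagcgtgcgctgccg
The 300-base window around this start holds 35 CG pairs, against a median of 16 over the 178 members with a promoter sequence and 21 over the tested genes that have one.

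A further 10 members had groups that did not overlap, but none of these (0 of 10) passed the threshold by edgeR or limma voom, and DESeq2 called 3 of them. Over all genes tested, 2.93% had no overlap with KO lower and 2.88% with KO higher, and at 10 CPM or more these shares were 3.05% and 3.27%. Among the members it was 10 of 220 lower (4.55%), Zfp518a included, and 1 of 220 higher (0.455%). Zfp605 was at 21.96, 20.1, 16.999 and 19.5 CPM in the WT mice (1 to 4) and at 5.28, 13.4, 7.40 and 5.37 CPM in KO mice 1 to 4. KO mouse 2 lay nearest to the WT mice. Its log2 fold change was -1.31 (SE 0.331), edgeR adjusted p = 0.0672, on as few as 29 counts.

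Zfp110 encodes a KRAB protein known as a partner of the neurotrophin receptor p75. It was at 18.5, 29.9, 30.7 and 28.3 CPM in WT mice and at 14.7, 14.1, 11.7 and 4.63 CPM in KO mice. WT mouse 1 was the low one of its group and KO mouse 4 the low one of the other. The log2 fold change was -1.19 (SE 0.302, edgeR adjusted p = 0.069). Zfp532, whose protein forms a complex with those of Zfp592 and Zfp687, was at 44.1, 57.5, 75.6 and 53.0 CPM in WT and at 24.5, 30.8, 42.8 and 22.04 CPM in KO. The gap between the lowest WT and the highest KO mouse was narrow. The log2 fold change was -0.85 (SE 0.23, edgeR adjusted p = 0.0988), and 28.7% of its exon bases overlap an antisense gene. Strand was not stated for the counting, so reads of the 2 genes may not be separated. Zfp592 and Zfp687 had log2 fold changes of 0.27 and 0.03.

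Zfp873 was at 31.1, 21.8, 24.0 and 18.8 CPM in WT and at 14.97, 14.97, 15.5 and 12.2 CPM in KO, with a log2 fold change of -0.71 (SE 0.27). The others with KO lower were Zfp882, Zfp553, Zfp184, Zfp831 and Zfp180, with log2 fold changes from -0.70 to -0.51. Zfp74 alone had every KO mouse above every WT mouse, at 71.6, 69.2, 81.3 and 78.6 CPM in WT and at 112, 93.6, 95.4 and 89.7 CPM in KO. Its log2 fold change was 0.37 (SE 0.157, edgeR adjusted p = 0.355). Zfp2, singled out after its values were seen, had the lowest log2 fold change of the members, at -1.45 (SE 0.344, edgeR adjusted p = 0.0578). It was at 32.7, 20.6, 80.7 and 29.0 CPM in WT and at 11.7, 21.5, 13.3 and 15.4 CPM in KO, so WT mouse 3 stood high and WT mouse 2 lay below KO mouse 2.

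**Figure D2:**
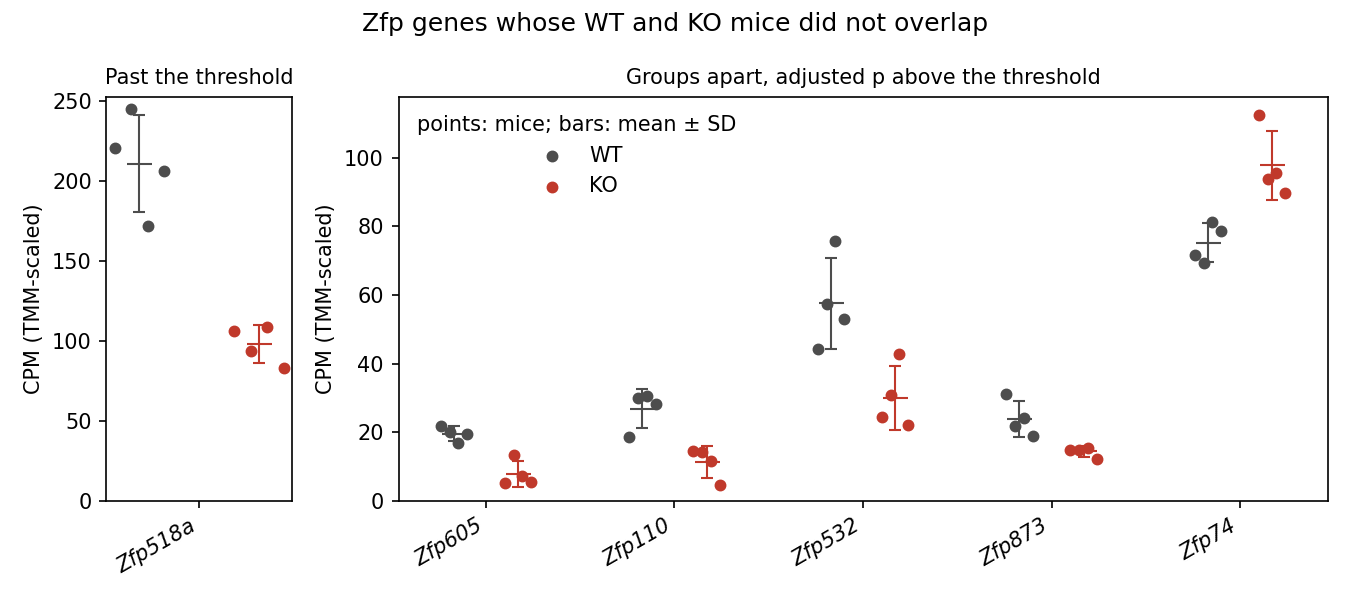
CPM in each of 4 WT and 4 KO mice (points) with mean and SD (bars) for Zfp518a and 5 other genes whose groups did not overlap, on linear axes that start at 0. Zfp518a, Zfp605, Zfp110, Zfp532 and Zfp873 lie lower in KO and Zfp74 higher, and only Zfp518a passed the threshold.

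By other tests the members called were also lower in KO. DESeq2 called 5 of 220 lower and 0 higher, namely Zfp518a, Zfp605, Zfp110, Zfp532 and Zfp2, against 0.661% of genes lower and 0.679% higher over its whole table. Limma voom called Zfp518a alone, against 0.217% of genes lower and 0.235% higher. At an unadjusted p under 0.05, 23 members (10.5%) were lower and 6 (2.73%) higher, against 5.45% and 5.75% of all genes tested. Among the 8618 tested genes at 10 CPM or more, the range in which the members lie, the background was 5.33% lower and 6.20% higher.

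The median log2 fold change of the members was -0.042, against 0.002 over all genes tested, and 119 of 220 had a fold below 1 (54.1%, against 49.8%). The median changed with level. It was -0.17 for the 64 members at 10 to 20 CPM, where all genes of that level had -0.024, and 41 of the 64 had a fold below 1. It was -0.022 for the 80 at 20 to 50 CPM, 0.019 for the 47 at 50 to 100 CPM and 0.028 for the 29 above. The spread between mice was also largest at the low end. The median SD of log2 CPM over WT mice was 0.454 at 10 to 20 CPM and 0.217 above 100 CPM. The steadiest member over the WT mice was Zfp622, a ribosome maturation factor, at 51.4 to 55.0 CPM. The least steady was Zfp948, at 2.51 to 18.9 CPM.

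**Figure D3:**
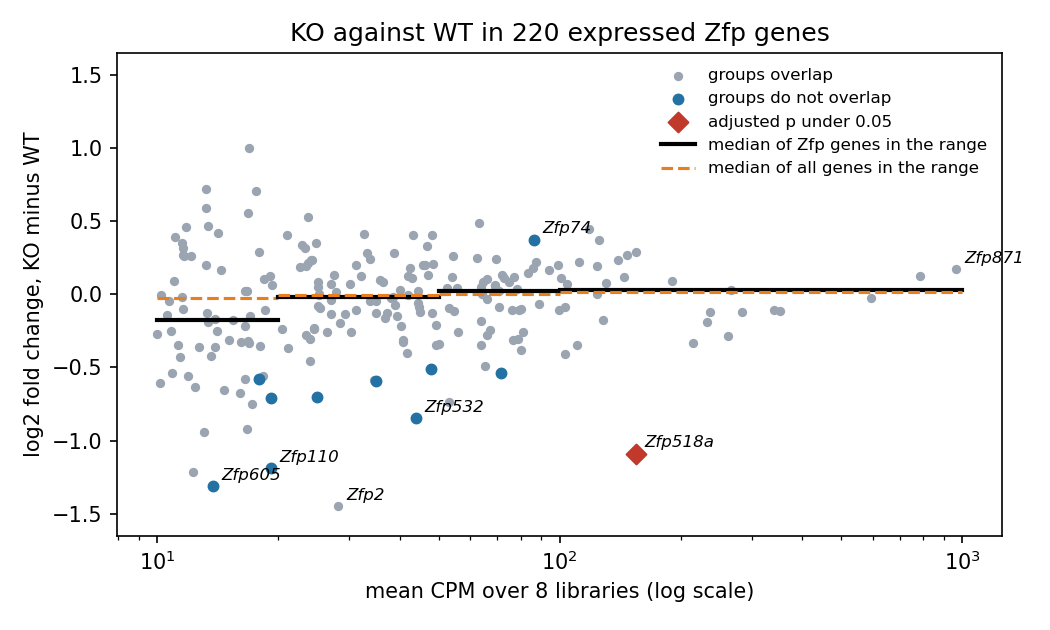
Log2 fold change (KO minus WT) of the 220 genes against mean CPM on a log axis, with medians per range of level for these genes (black) and for all genes (dashed). The black line lies below the dashed one at 10 to 20 CPM (-0.17 and -0.024) and lies close to it above 20 CPM.

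The per-mouse medians set every member to its own mean over the 8 mice on a log2 scale. Over all 220 members they were -0.0025, 0.09, 0.0818 and -0.0233 for the WT mice in order and -0.0105, -0.0031, -0.021 and -0.0229 for the KO mice. WT mice 2 and 3 stood high, WT mouse 4 lay just below all KO mice, and the groups overlapped. WT mice 2 and 3 were also the smallest libraries, at 3594315 and 5086878 counts. With all libraries thinned to the smallest total, added after the data were seen, their medians were 0.0854 and 0.123. Over all genes at 10 CPM or more the same medians ran from -0.0017 to 0.0249. The scaling of the libraries brings most genes to a common level, so these medians lie near 0 by construction. They are therefore no background for the medians of the 220 members. The part of library size in the medians of WT mice 2 and 3 was not tested.

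The ranges of level were chosen after the data were seen. For the 64 members at 10 to 20 CPM the medians were 0.0366, 0.123, 0.254 and 0.0646 in WT and -0.0901, -0.0624, -0.0973 and -0.0905 in KO. Every WT mouse lay above every KO mouse. Per-mouse medians of all genes at 10 to 20 CPM were not taken, so this separation has no background of equal level. For the 156 members at 20 CPM or more they ran from -0.0407 to 0.0861 in WT and from -0.0183 to 0.0187 in KO and overlapped. WT mouse 2 held the highest value of 45 of the 220 members, the most of any mouse, and WT mouse 4 of 11, the fewest.

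**Figure D4:**
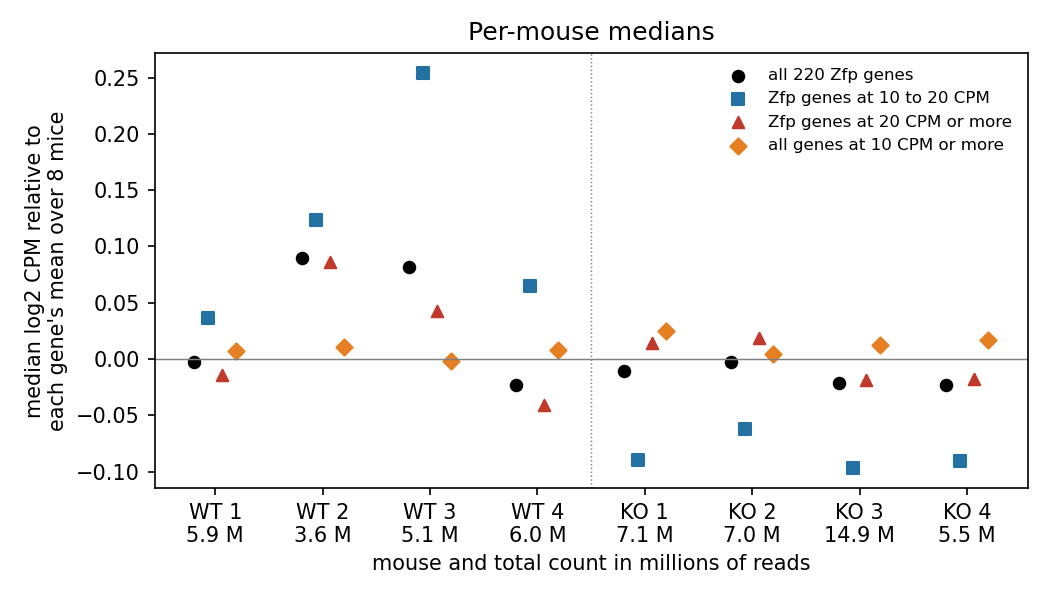
Median log2 CPM relative to each gene's mean over 8 mice, per mouse, with the total count below, for all 220 Zfp genes, those at 10 to 20 CPM, those at 20 CPM or more, and all genes at 10 CPM or more. WT mice 2 and 3 stand high among the Zfp genes, and the squares of the 10 to 20 CPM range separate WT from KO. All genes at 10 to 20 CPM are not shown.

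The members lay on 20 chromosomes, 51 of them on chromosome 7 and 26 each on chromosomes 13 and 17. With a gap of at most 1 Mb between neighbouring members, 119 formed 20 clusters of 3 to 16 genes and 101 lay outside. Clusters are named here by chromosome and a letter in order of position. Members in clusters had a median log2 fold change of -0.072 and those outside -0.025. At an unadjusted p under 0.05, 13 of the 119 were lower and 4 higher, and 10 of the 101 outside were lower and 2 higher. Over all genes tested the shares were 5.45% lower and 5.75% higher, and at 10 CPM or more 5.33% and 6.20%. The median level was 27.0 CPM in clusters and 47.1 CPM outside.

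No cluster (0 of 20) had per-mouse medians that kept WT and KO apart, and 17 of the 20 held members with log2 fold changes of both signs. The largest was cluster 13a (mm10 chromosome 13, 67038596 to 67792512), with 16 members. Its median log2 fold change was -0.036, with 9 of 16 below 0 and 0 of 16 at an unadjusted p under 0.05. It holds Zfp708, whose protein binds retroelements, at 29.2 ± 10.4 (WT) and 23.5 ± 2.96 (KO) CPM. However, 96.8% of the sampled 50-base stretches of Zfp708 also occur in transcripts of other genes, Gm28557 among them. In cluster 17a (chromosome 17, 21008903 to 23193252), 8 of 15 were below 0, and its members ran from -0.73 for Zfp52 to 1.00 for Zfp948. Its median was -0.077, but 0.049 on thinned counts and 0.032 without KO mouse 2. Zfp52 was at 82.7, 44.6, 61.4 and 78.6 CPM in WT and 39.5, 33.0, 53.9 and 31.1 CPM in KO, and the groups overlapped through WT mouse 2. Cluster 17b, with Zfp871, had a median of -0.19, and 7 of its 9 members were below 0.

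Chromosome 7 held 7 clusters with 42 members. Cluster 7d (chromosome 7, 24081924 to 25227507) had 10 members and the widest range of them, from -1.22 for Zfp94 to 0.70 for Zfp93. Zfp94 was at 25.6, 17.6, 9.38 and 14.0 CPM in WT and at 4.71, 11.2, 4.60 and 11.3 CPM in KO. WT mouse 3 lay below KO mice 2 and 4. Zfp61, which neighbours Zfp94, had -0.94 and Zfp180 -0.51, while Zfp93, at 13.7 ± 2.23 (WT) and 21.5 ± 6.17 (KO) CPM, had 0.70. For Zfp93, 25.3% of its sampled 50-base stretches occur in transcripts of other genes, Gm11677 among them, so its counts are uncertain. Adjusted p by edgeR was 0.191 for Zfp94, 0.318 for Zfp61, 0.305 for Zfp180 and 0.368 for Zfp93.

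In cluster 7d, 3 of the members share a promoter element and had fold changes of different sign, none past the threshold. Zfp180, Zfp93 and Zfp108 hold, within 250 bases before the start, an element bound by the factor that Zfp143 encodes. The search covered both strands. The upstream sequences are given from RefSeq, build GRCm38.p6, plus strand, 5′ to 3′, for chr7:24081647-24081896, chr7:24270168-24270417 and chr7:24254544-24254793. Capitals mark its letters, in the orientation opposite to the gene.
Zfp180: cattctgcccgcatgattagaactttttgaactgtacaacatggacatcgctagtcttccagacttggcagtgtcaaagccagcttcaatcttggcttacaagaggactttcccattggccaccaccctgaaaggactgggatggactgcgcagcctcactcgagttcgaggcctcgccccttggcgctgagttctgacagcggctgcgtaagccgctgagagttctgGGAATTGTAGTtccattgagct
Zfp93: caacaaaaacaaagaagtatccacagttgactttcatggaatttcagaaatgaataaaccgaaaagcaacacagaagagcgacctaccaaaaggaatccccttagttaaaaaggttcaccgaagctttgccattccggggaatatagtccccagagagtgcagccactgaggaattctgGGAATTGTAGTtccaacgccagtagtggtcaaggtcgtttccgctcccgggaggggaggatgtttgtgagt
Zfp108: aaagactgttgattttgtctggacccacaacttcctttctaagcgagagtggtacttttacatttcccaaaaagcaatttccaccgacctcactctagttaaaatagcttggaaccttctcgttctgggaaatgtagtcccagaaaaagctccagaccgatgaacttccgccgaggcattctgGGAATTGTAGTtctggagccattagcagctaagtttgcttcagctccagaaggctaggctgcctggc
Zfp108 was at 14.5 ± 6.43 (WT) and 10.5 ± 7.09 (KO) CPM. Zfp143 was at 26.2 ± 8.78 (WT) and 23.0 ± 5.70 (KO) CPM, with a log2 fold change of -0.23 (SE 0.268). The element was found in 6 of 178 members with a promoter sequence (3.37%), in 0.864% of the 8796 tested genes with one and in 0.322% of all 27025. The ETS core CCGGAAG was found in 22.5% of members and 21.1% of tested genes, TGACGTCA in 5.06% and 3.64%, and TATAAA in 7.87% and 8.38%. These 4 were picked from 14 searched after the shares had been seen, and members of a cluster share descent, so the shares are a description.

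The remaining clusters on chromosome 7 did not share a direction. Cluster 7c held Zfp110 and had a median of -0.049. Cluster 7f (9 members) had a median of 0.12 and held both Zfp74 and Zfp84, the latter at 117 ± 25.3 (WT) and 88.3 ± 15.6 (KO) CPM with a log2 fold change of -0.41. Clusters 7a and 5a had all 3 members above 0 and cluster 15a all 3 below 0, with medians of 0.32, 0.12 and -0.36 and no member at an unadjusted p under 0.05. The median of 7a was 0.10 without WT mouse 4 and 0.093 without KO mouse 2. Other members with the smallest p of their cluster were Zfp467 in 6a at -0.92, Zfp599 in 9b at -0.75, Zfp418 in 7b at -0.58, Zfp799 in 17b at -0.49, Zfp759 in 13a at 0.59 and Zfp597 in 16a at 0.41. The edgeR adjusted p of these 6 lay between 0.25 and 0.617.

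**Figure D5:**
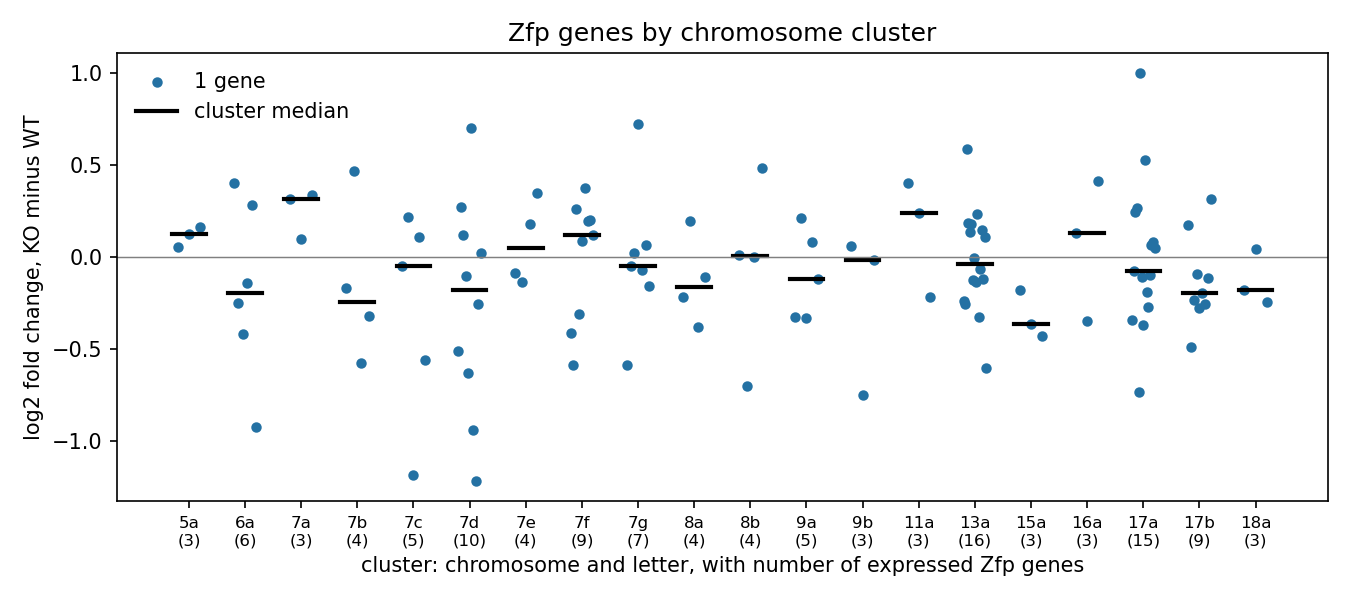
Log2 fold change (KO minus WT) of each expressed Zfp gene (points) in 20 chromosome clusters, with the cluster median (bar) and the number of genes in parentheses. Points of most clusters lie on both sides of 0, and the widest spread is in 7d.

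By role, 9 members belonged to a list of factors of translation and RNA, and 0 of 9 passed the test over all genes by edgeR, DESeq2 or limma voom, with 1 of 9 at an unadjusted p under 0.05, where all genes tested had 11.2%. Zfp326, a subunit of a complex that links RNA polymerase II to splicing, had the smallest p of them, at 109 ± 14.8 (WT) and 142 ± 12.9 (KO) CPM. Its log2 fold change was 0.37 (edgeR adjusted p = 0.317). Zfp598, which marks collided ribosomes, had -0.06 and Zfp622 -0.21. The median of the 9 was -0.025.

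The role lists are counted here over members alone. Of 15 members listed as partners of chromatin complexes, Zfp518a fell and the other 14 did not pass by edgeR, while DESeq2 also called Zfp532. Over all genes tested, 0.33% fell past the threshold by edgeR and 0.661% by DESeq2. Both genes were already named above, so the list adds no separate result. The median of the 15 was -0.091, and 9 of them had a fold below 1. Zfp532 came next by size, at -0.85. Zfp281, a pluripotency factor, had -0.32, Zfp217, a partner of corepressors, -0.28, and Zfp521, known from stem and progenitor cells of blood, -0.18, while Zfp335 had 0.35 and Zfp462 0.28. Among 4 KRAB members known to bind retroelements or an imprinted promoter, 0 passed by edgeR, DESeq2 or limma voom, and Zfp961 alone had an unadjusted p under 0.05. The median of the 4 was 0.13, and Zfp708 had -0.26. With the genes of this list under 10 CPM, 7 were tested and 1 passed, the lower Zfp951 (edgeR adjusted p = 0.00928). Over all genes tested, 0.583% passed by edgeR in either direction and 11.2% had an unadjusted p under 0.05. Zfp961 was at 57.2, 48.0, 39.7 and 65.4 CPM in WT and at 88.1, 70.7, 81.2 and 54.1 CPM in KO, with a log2 fold change of 0.49 (edgeR adjusted p = 0.332). KO mouse 4 lay within the WT range. Zfp809, which silences murine leukaemia virus, was at 67.4 ± 7.12 (WT) and 70.8 ± 9.21 (KO) CPM, and Zfp568 at 42.2 ± 11.3 and 49.3 ± 4.63 CPM.

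The silencing machinery that KRAB zinc finger proteins act through was read from a list of 36 genes around TRIM28, of which 35 were tested. In this list 1 gene fell and 0 rose, and the median log2 fold change was -0.054. The gene that fell was Atf7ip, a partner of SETDB1, at 312 ± 42.5 (WT) and 131 ± 9.35 (KO) CPM, with a log2 fold change of -1.25 (edgeR adjusted p = 2.58e-06). At an unadjusted p under 0.05 the lower genes were 3, with the DNA methyltransferase Dnmt3a (-0.50) and the HUSH subunit Fam208a (-0.51), and the higher 0. Of all genes tested, 5.45% were lower and 5.75% higher at that p, and 0.33% fell and 0.252% rose past the adjusted threshold. Trim28 and Setdb1 themselves had log2 fold changes of 0.04 and -0.05. DESeq2 called Atf7ip and Dnmt3a, as did edgeR with WT mouse 4 left out.

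Finger number and shared sequence were set beside the fold changes, with limits chosen after the data were seen. C2H2 finger patterns counted in translated transcripts had a median of 11 per member and a maximum of 37, in Zfp142, and Zfp330 and Zfp839 had 0. The 163 members with at least 8 fingers had a median log2 fold change of -0.077, with 19 lower and 4 higher at an unadjusted p under 0.05. The 57 with fewer had a median of 0.003, with 4 lower and 2 higher. All genes at 10 CPM or more had a median of 0.004, with 5.33% lower and 6.20% higher. Their median levels differed as well, at 31.1 and 49.4 CPM. For 26 members, over 10% of the 50-base stretches occur in another gene's transcripts, and these had a median of -0.0004, against -0.049 for the other 194. Just inside the limit lay Zfp943 at 10.007 CPM, Zfp493 at 10.18 CPM and Zfp617 at 10.2 CPM, and just outside it Zfp276 at 9.71 CPM, Zfp523 at 9.61 CPM and Zfp934 at 9.60 CPM.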

How the data were processed

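Stem cell RNA from 4 WT and 4 KO mice was pre-amplified with Nugen Ovation V2 and sequenced on a NextSeq 500, per the labels' protocols. Reads were aligned with STAR (Galaxy 2.4.0d-2) and counted per gene with htseq-count (Galaxy 0.6.1galaxy1) on mm10, per the submitters' processing notes. Whether strand was used is not given in the sources used here. The values deposited by the authors are raw counts per gene, 1 table per mouse. Totals of 3594315 to 14872493 set the precision.

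For the 10 CPM limit, means over all 8 libraries that rank or bin members, CPM per kb and summed member levels, CPM is the count over the library total. CPM values per mouse or group, marker levels and per-mouse medians use the library total multiplied by its TMM scaling factor (0.974 to 1.03). Genes passing filterByExpr (minimum count 10) were fitted with edgeR 4.0.16 in R 4.3.3 (TMM, robust quasi-likelihood test, KO against WT, no covariate) and p was adjusted by Benjamini-Hochberg over all 11498 genes. All 220 members passed the filter. DESeq2 1.42.0, limma 3.58.1 (voom), other filters and scalings, a replicate block, thinning and leaving out each mouse were alternatives. The fit was tested on simulated data. Replicates differed beyond sampling noise (chi-square per degree of freedom at least 11.4).

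Positions and exon lengths are from GENCODE vM21, matched by symbol for 218 members and by synonym for 2. Fingers were counted in the longest open reading frame, and 50-base stretches were sampled every 10 bases. A planned grouping by KRAB domain was not used here. Members, lists and rules were chosen with earlier results of these data known. Named genes are those past the threshold, the highest by CPM and CPM per kb, the largest separated changes, the smallest p per cluster and per role list, the extremes of spread and those beside the limit. Zfp2, other genes of the role lists, and the genes of cluster 7d beside Zfp94 were named after their values were seen.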

Additional observations from a re-analysis of the deposited data

Results flagged for a closer look

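In 4 of 88 groups of 4 mice examined (4.55%), 1 library lay far from the other 3. Chance flags about 1 in 20 such groups. Zfp106 was at 714 CPM in KO mouse 1, below the other KO mice. Zfp422 was at 235 CPM in WT mouse 4, above the other WT mice. Zfp597 was at 44.4 CPM in WT mouse 3 and Zfp799 at 78.7 CPM in KO mouse 1, each above the rest of its group. For Zfp799 the other 3 KO mice lay below every WT mouse, at 45.5 to 46.2 CPM.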

How the results depend on the processing

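The members called numbered 1 in the fit as reported, 6 without a filter on low counts (Zfp110, Zfp2, Zfp518a, Zfp52, Zfp532 and Zfp605), 5 with DESeq2, 2 on thinned counts (Zfp518a and Zfp532), 4 with the symbols left out by name, and 1 to 3 when 1 mouse was left out. With the replicate block they were 2, Zfp518a and Zfp532, but the numbers did not pair the mice, with correlations of -0.0945 to -0.0118. TRIM28 partners called were 1, and 2 without a filter and with DESeq2, and 1 to 2 when 1 mouse was left out, Dnmt3a being added without WT mouse 4. The cause of these shifts was not tested. Shares over all genes are given only for the main fit, DESeq2 and limma voom. For the other fits, the members called were not set beside the calls over all genes. The median log2 fold change of the members stayed between -0.066 and -0.002. Among 43 named members, 676 values under alternatives kept their side of the threshold and 12 gained a call, with 11 changes of sign, in Zfp148, Zfp207, Zfp617 and Zfp943. Of the cluster medians, 345 stayed within the spread and 13 moved. Members near 10 CPM rest on few counts, down to 9.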

Other observations

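Among 129 Zfp symbols under 10 CPM, 77 were tested, with a median log2 fold change of -0.098, 48 below 0, and 9 lower and 0 higher at an unadjusted p under 0.05. Over all genes tested 49.8% lay below 0, 5.45% were lower and 5.75% higher. Zfp951, a KRAB gene of the retroelement list, was the 1 of 77 that passed by edgeR, where 0.583% of all genes tested passed. It was at 3.80, 4.46, 5.08 and 4.67 CPM in WT and at 0.57, 0.565, 0.467 and 0 CPM in KO, with an adjusted p of 0.00928 by edgeR on 0 to 29 counts. Every WT mouse lay above every KO mouse.

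Other zinc finger families at 10 CPM or more had medians of -0.10 for 28 Zbtb genes and -0.19 for 12 Zkscan and Zscan genes. In each family 0 passed by edgeR, and 1 was lower and 0 higher at an unadjusted p under 0.05. All genes tested at 10 CPM or more had a median of 0.004, and 0.661% of them passed by edgeR. Of these genes, 5.33% were lower and 6.2% higher at that unadjusted p.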
